A study of Mus musculus with 3 samples.

Results

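The CC chemokine genes described here are 10 genes, Ccl2, Ccl3, Ccl4, Ccl5, Ccl6, Ccl7, Ccl9, Ccl12, Ccl22 and Ccl24, taken by gene symbol from the 55536 annotated genes of the deposited gene tables. They were measured in bone marrow-derived macrophages (BMDM) of C57BL/6J mice, primary cells grown out of bone marrow, which had been given 100 ng/ml of Lipid A for 30 min before the cytosolic fraction was isolated. Lipid A is the part of bacterial lipopolysaccharide that the receptor TLR4 recognises. Total RNA of the cytosol was depleted of ribosomal RNA and sequenced in 3 libraries of this 1 group, called replicates 1, 2 and 3 here as in the labels. The labels name 1 donor record for the 3 libraries and give neither sex nor age, so the spread between libraries may be partly technical. No unstimulated cells and no nuclear RNA were analysed here, so a high level says nothing about induction.

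Chemokines are small secreted proteins that draw leukocytes along a gradient by binding receptors coupled to inhibitory G proteins. The CC class is named for a pair of neighbouring cysteines near the start of the mature protein, and many of its genes lie side by side in the genome. Macrophages that sense lipopolysaccharide are a textbook source of several of them: CCR2 ligands call monocytes, CCR1 ligands call monocytes, neutrophils and T cells, and CCR4 and CCR3 ligands are better known from type 2 responses. Their messenger RNAs are in general short, and many carry AU-rich stretches in the 3′ untranslated region (UTR) that promote decay.

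The depth on genes was 23403511, 50435192 and 35785886 expected counts for replicates 1, 2 and 3. Of the macrophage markers, read to check the labelled cell type, 10 of 10 averaged at least 10 TPM, led by Lyz2 at 5224 ± 793 TPM and C1qb at 746 ± 56.1 (SD, n = 3). TPM (transcripts per 1000000) divides counts by transcript length, so it allows genes to be compared with each other. Nuclear protein-coding genes held 22.3%, 34.4% and 24.3% of all TPM in replicates 1, 2 and 3, so the TPM of a messenger RNA also depends on how much of the total other RNAs take in that library. Counts scaled to library size with trimmed-mean factors (TMM-scaled CPM, counts per 1000000) were therefore used to compare libraries. Replicate 1 stood apart in stromal cell markers, which are given below. The libraries are bulk RNA, so fewer cells making a transcript and less of it per cell cannot be told apart.

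By mean TPM, 8 of the 10 genes reached 10 and 3 reached 100, and the remaining Ccl22 and Ccl24 stayed under 1 TPM. Together they held 1050, 980 and 819 TPM in replicates 1, 2 and 3, which is 950 ± 118 (SD, n = 3). Their share of the counts on genes was 0.151% (95% Wilson interval 0.150 to 0.153), 0.116% (0.115 to 0.117) and 0.111% (0.110 to 0.112). Ccl3 and Ccl4 carried 58.9%, 48.5% and 49.3% of the summed TPM, and Ccl6 and Ccl9 a further 23.1%, 32.2% and 29.7%. Replicate 1 thus had the largest share of counts on these genes and the largest part of the summed TPM in Ccl3 and Ccl4. In counts, which are not divided by length, Ccl6 and Ccl9 held more than Ccl3 and Ccl4 in every library. Their counts were 16651, 33870 and 20753, against 14005, 17265 and 12856 for Ccl3 and Ccl4.

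**Figure D1:**
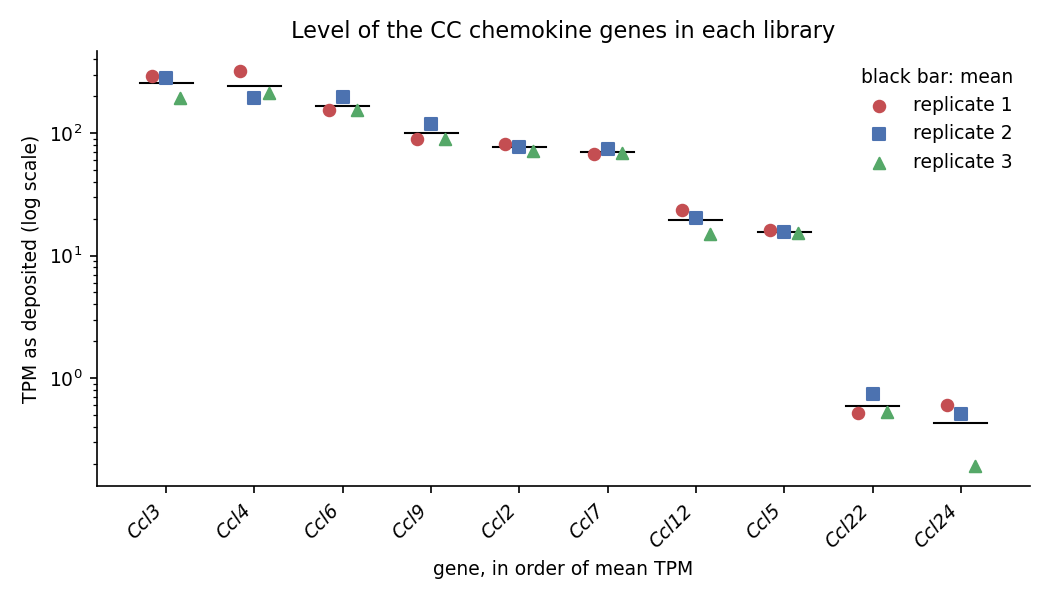
TPM as deposited on a log axis for each of the 10 CC chemokine genes, in order of mean TPM, with 1 point per library and a black bar at the mean. The 10 genes fall into Ccl3, Ccl4 and Ccl6 at 153 TPM or more, Ccl9, Ccl2 and Ccl7 between 67.3 and 120 TPM, Ccl12 and Ccl5 between 15.1 and 23.5 TPM, and Ccl22 and Ccl24 under 1 TPM.

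The CCR2 ligands were present at middle to high levels. Ccl2, the main monocyte attractant (ENSMUSG00000035385.5, chr11:82035571-82037453 of mm10, plus strand), was at 81.2, 76.8 and 72.1 TPM in replicates 1, 2 and 3. Ccl7, which attracts monocytes through the same receptor (ENSMUSG00000035373.2, chr11:82045712-82047525, plus strand), was at 67.3, 74.5 and 69.0 TPM. The ranges of these neighbours overlapped, although Ccl2 was above Ccl7 in 3 of 3 libraries, by 0.12 ± 0.13 on the log2(TPM + 1) scale. Ccl12, a rodent CCR2 ligand (ENSMUSG00000035352.3, chr11:82101845-82103400, plus strand), was lower at 23.5, 20.3 and 15.1 TPM. Its values lay below every Ccl7 value, with a difference of 1.81 ± 0.32 on that scale.

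In TPM, Ccl2 ranked 542nd and Ccl7 584th by mean among 22015 nuclear protein-coding genes, and Ccl12 2173rd. In TMM-scaled CPM, which follows 1 gene across libraries, Ccl2 was at 100.75, 61.5 and 82.7, Ccl7 at 80.2, 57.7 and 75.4, and Ccl12 at 15.0, 8.29 and 9.06. All 3 were highest in replicate 1 and lowest in replicate 2 on this scale. The highest library exceeded the lowest 1.64-fold for Ccl2, 1.39-fold for Ccl7 and 1.82-fold for Ccl12. In the TPM as deposited the same genes spread less for Ccl2 and Ccl7, whose coefficients of variation were 5.93% and 5.37% against 24.1% and 16.7% in CPM.

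Ccl3 and Ccl4 had the highest mean TPM of the 10, although Ccl6 at 196 TPM was above Ccl4 in replicate 2. In mean TMM-scaled CPM, which is not divided by length, Ccl9 at 336 and Ccl6 at 319 were above Ccl3 at 244 and Ccl4 at 193. Ccl3, a CCR1 ligand (ENSMUSG00000000982.5, chr11:83647844-83649355, minus strand), was at 295, 284 and 192 TPM, and its mean of 257 ± 56.3 ranked 132nd among protein-coding genes. Ccl4, an attractant of monocytes and T cells (ENSMUSG00000018930.3, chr11:83662584-83664683, plus strand), was at 324, 192 and 212 TPM, with a mean of 242 ± 71.3 and rank 142. The order of the pair was not the same in every library. Ccl4 was above Ccl3 in replicates 1 and 3 and below it in replicate 2, and the ratio of Ccl3 to Ccl4 counts was 1.13, 1.86 and 1.12. On the log2(TPM + 1) scale their difference was 0.10 ± 0.41, which is within the spread between libraries.

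Ccl4 also spread most widely of the 8 genes above 10 TPM. It was at 292, 111 and 176 TMM-scaled CPM, a 2.63-fold range, while Ccl3 was at 330, 206 and 197, a 1.67-fold range. For Ccl3 replicate 1 stood above a close pair, and for Ccl4 the 3 libraries were about evenly apart in log2. Without replicate 2 the mean difference between the pair turned to -0.137, with Ccl4 above.

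Ccl5, which binds CCR1 and CCR3 (ENSMUSG00000035042.2, chr11:83525778-83530518, minus strand), was lower at 16.1, 15.7 and 15.3 TPM. Its mean of 15.7 ± 0.415 had the smallest relative spread of the 10 genes in TPM, 2.65%. In CPM it was at 10.4, 6.36 and 9.08, highest in replicate 1 and lowest in replicate 2, with a coefficient of variation of 24.1%. The narrow spread of Ccl5 was thus seen in the deposited TPM and not in CPM. It rested on 235, 346 and 313 counts. Its TPM range overlapped that of Ccl12, the next gene above it, and their difference was 0.28 ± 0.27.

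Ccl6 and Ccl9 are rodent chemokines that act through CCR1 and were both abundant. Ccl6 (ENSMUSG00000018927.3, chr11:83587882-83593087, minus strand) was at 153, 196 and 154 TPM, and Ccl9 (ENSMUSG00000019122.8, chr11:83572919-83578636, minus strand) at 89.1, 120 and 89.2 TPM. Replicate 2 was highest for both in TPM, and the ratio of Ccl6 to Ccl9 was 1.72, 1.64 and 1.73, against 1.24, 1.49 and 1.41 in the second transcript table, a separate deposited estimate. The order of these neighbours depends on length. Their count ratio was 0.848, 1.07 and 0.965, with effective lengths of 1073, 1189 and 1033 nt for Ccl6 and 2173, 1816 and 1852 nt for Ccl9.

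Between libraries Ccl6 moved little, from 339 to 322 to 296 CPM, a 1.15-fold range. Ccl9 was at 400, 300 and 307 CPM, a 1.33-fold range. Replicate 1 was highest for both, which turned to replicate 2 in the deposited TPM and, for Ccl6, also when library totals were used without TMM factors.

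The promoters of Ccl6 and Ccl9 are shown because these neighbouring genes, 9.2 kb apart on the same strand, have start regions that resemble each other. Each runs from 250 bases before to 50 bases after the start site, on the minus strand of GRCm38.p6, taken from RefSeq, which listed 5 of the 10 genes (Ccl3, Ccl6, Ccl9, Ccl12 and Ccl22). Capitals mark bases that lie in a run of 10 or more bases held by both promoters. Such runs can overlap, so the first capital stretch of Ccl9 joins runs that lie apart in Ccl6.
Ccl6, chr11:83593038-83593337: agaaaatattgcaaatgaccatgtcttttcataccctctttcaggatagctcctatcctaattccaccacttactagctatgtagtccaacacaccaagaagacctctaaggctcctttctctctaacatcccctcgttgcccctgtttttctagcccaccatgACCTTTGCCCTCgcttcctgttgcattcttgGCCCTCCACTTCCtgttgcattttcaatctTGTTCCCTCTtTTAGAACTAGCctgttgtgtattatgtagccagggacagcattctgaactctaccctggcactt
Ccl9, chr11:83578587-83578886: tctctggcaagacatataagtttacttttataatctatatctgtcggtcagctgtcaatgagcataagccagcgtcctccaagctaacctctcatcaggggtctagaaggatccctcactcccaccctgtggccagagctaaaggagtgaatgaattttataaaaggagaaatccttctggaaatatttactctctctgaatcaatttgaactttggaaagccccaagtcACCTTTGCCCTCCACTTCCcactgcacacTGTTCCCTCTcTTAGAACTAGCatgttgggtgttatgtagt
The best local alignment covered 74 columns, of which 58 (78.4%) were identical. It ran from base -59 to base 14 counted from the start site in Ccl6, the start site being base 0, and from base -18 to base 48 in Ccl9. The longest shared run, gccctccacttcc, is 13 bases long and was found on either strand in 6 of 32851 promoters (0.0183%), these included. Every other pair among the 5 promoters shared at most 10 bases in a row.

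Of the 5 promoters, 1 held a match to the NF-kB site, searched on both strands, as did 8.46% of all promoters of the same length. That match, GGGGCTTTCC, was on the reverse strand of the Ccl9 promoter and began 35 bases before the start site. The AP-1 site TGANTCA was found in the same promoter and in no other of the 5, against 7.81% of all promoters. The TATA box TATAAA, searched on both strands, was found in Ccl9 and in Ccl12, against 13.6% of all promoters. In Ccl12 it began 31 bases before the start site. In Ccl9 the matches lay farther away, beginning at bases -224, -94 and -92, and the one at -92 alone was on the forward strand. A match is a run of letters in this window and no evidence of binding, and its absence says nothing about a factor.

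Ccl22, the CCR4 ligand better known from dendritic cells (ENSMUSG00000031779.3, chr8:94745590-94751699, plus strand), was at 0.520, 0.740 and 0.530 TPM on 48, 110 and 68 counts. Ccl24, a CCR3 ligand and eosinophil attractant (ENSMUSG00000004814.10, chr5:135569937-135573049, minus strand), was at 0.600, 0.510 and 0.190 TPM on 16, 30 and 9 counts. Their ranges overlapped, and they ranked 9969th and 10291st. The step from Ccl5 down to Ccl22 was the widest in the order, 3.39 ± 0.12 on the log2(TPM + 1) scale. Dendritic cell markers were low as well, with Batf3 at 1.52 and Ccr7 at 0.527 mean TPM leading a list of 8.

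Across the order of mean TPM there are 9 neighbouring pairs. In 5 of the 9 the gene with the higher mean was higher in 3 of 3 libraries, and in 4 the ranges did not overlap: Ccl6 over Ccl9, Ccl9 over Ccl2, Ccl7 over Ccl12 and Ccl5 over Ccl22. The exact permutation test that flips the signs of the 3 within-library differences (two-sided) gave p = 0.25 for those 5, which is the smallest value that 3 libraries allow, and 0.45 after adjustment over the 9 pairs. The neighbours Ccl3 and Ccl4, Ccl4 and Ccl6, Ccl12 and Ccl5, and Ccl22 and Ccl24 changed order between libraries.

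Of the 10 genes, 8 lie in a pair of clusters on chromosome 11 about 1220.1 kb apart, counted between the facing ends of Ccl1 and Ccl5. The first runs from Ccl2 through Ccl7, Ccl11, Ccl12 and Ccl8 to Ccl1, and the other from Ccl5 through Ccl9, Ccl6 and Ccl3 to Ccl4. Along the plus strand of the first cluster came Ccl2 and Ccl7, which are 8.3 kb apart and highest there, then Ccl12, and then Ccl8, a further chemokine gene, with 7.10, 7.25 and 6.75 TPM. Ccl11, the eotaxin gene that lies 10.3 kb beyond Ccl7, had 0 counts in every library, and so did Ccl1. In the other cluster Ccl5 at one end had the lowest mean TPM, and Ccl3 and Ccl4, which lie 13.2 kb apart on opposite strands at the far end, had the highest. The Ccl2 cluster thus held a chemokine gene with no counts between detected ones, and the other cluster held none.

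**Figure D2:**
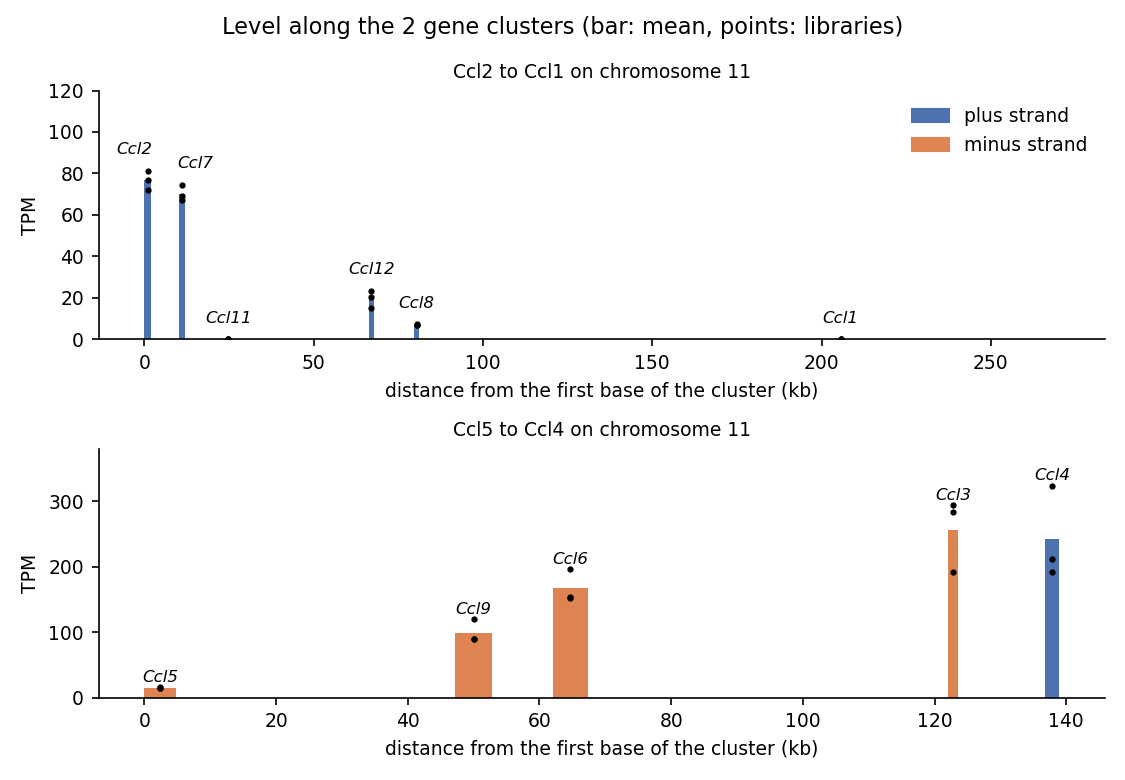
Mean TPM (bars) and the value of each library (points) against distance in kb from the first base of each chemokine cluster on chromosome 11, with bar width as gene length and color as strand. Ccl11 and Ccl1 are at 0 TPM between and beyond expressed genes of the upper cluster, while the lower cluster runs from Ccl5 at 15.7 TPM to Ccl3 and Ccl4 at 257 and 242 TPM.

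Outside chromosome 11, the nearest CC genes to the low members were not seen. Ccl17, 58.8 kb from Ccl22, and Ccl26, 6.4 kb from Ccl24, had 0 counts in every library. A count of 0 allows up to 3 counts, or 0.128, 0.0595 and 0.0838 CPM on library totals. In all, 10 of the 14 other CC ligand genes had 0 counts in each library, and 2 averaged at least 1 TPM. These were Ccl8 and Ccl25, an attractant of thymocytes and gut T cells, at 1.11, 2.26 and 1.11 TPM. Ccl27a was at 0.290, 0.490 and 0.280 TPM.

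The count test asked whether each gene differed between the 3 libraries by more than counting error (chi-square index of dispersion on rounded counts with TMM-scaled library sizes, Benjamini-Hochberg adjustment over the 13237 genes averaging at least 10 counts). All 10 CC chemokine genes entered it and 8 passed, in a background where 66.8% of tested genes passed. The members not called were Ccl22, with an adjusted p of 0.931 and a 1.08-fold range, and Ccl24, with an adjusted p of 0.0634 and a 2.72-fold range on few counts. Without replicate 1, Ccl12 (adjusted p = 0.295) and Ccl9 (adjusted p = 0.092) were no longer called, which left 6 genes beside 55.3% of tested genes. Without replicate 2, Ccl7 (0.112) and Ccl5 (0.224) were not called and Ccl24 was (0.039), by the same adjusted p, which left 7 genes beside 33.1% of tested genes. Without replicate 3, 8 genes passed beside 51.2% of tested genes. The share of all tested genes thus moved more than that of the members without replicate 2 or 3, and less without replicate 1. With all 3 libraries, a share of 8 in 10 near 66.8% is not a result about these genes.

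The size of the spread is a description beside that of all tested genes. The highest library was 1.5-fold or more above the lowest in 6 of the 10 (Ccl2, Ccl12, Ccl3, Ccl4, Ccl5 and Ccl24), beside 26.8% of tested genes. The median ratio was 1.64 for the 10 and 1.27 for all tested genes. Leaving out replicate 1 brought the count of genes past 1.5-fold from 6 to 2, beside 17.7% of tested genes. In the TPM as deposited it was 4 of the 10 beside 68.5% of tested genes, so the share of the 10 was above that of all tested genes in CPM and below it in this TPM.

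Replicate 1 was the highest library for 10 of 10 genes in TMM-scaled CPM, beside 29.8% of tested genes. This was the same with DESeq2 size factors and with TPM rescaled so that protein-coding genes sum to 1000000, but held for 9 genes in the counts of the second transcript table, 8 with library totals alone and 6 in the TPM as deposited, beside 7.69% of tested genes on that last scale. In the TPM of the second table replicate 1 was highest for Ccl4 alone, 1 of 10 beside 6.35% of tested genes, and replicate 2 for the other 9. Replicate 1 was chosen for this count because earlier results of these data placed cytokine genes highest there. The count is thus not independent support. The median deviation of the 10 from their own mean was 0.32, -0.25 and -0.08 in log2 CPM in replicates 1, 2 and 3, while that of all tested genes was 0.002, 0.006 and 0.001. The lowest library was replicate 2 for 6 genes and replicate 3 for Ccl3, Ccl6, Ccl22 and Ccl24, beside 37.6% and 31.4% of tested genes. On the log2(TPM + 1) scale the median deviation of all tested genes itself moved to -0.18 in replicate 1 and 0.25 in replicate 2. That of the 10 was 0.06 and 0.09 there, which is above all genes in replicate 1 and below them in replicate 2.

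**Figure D3:**
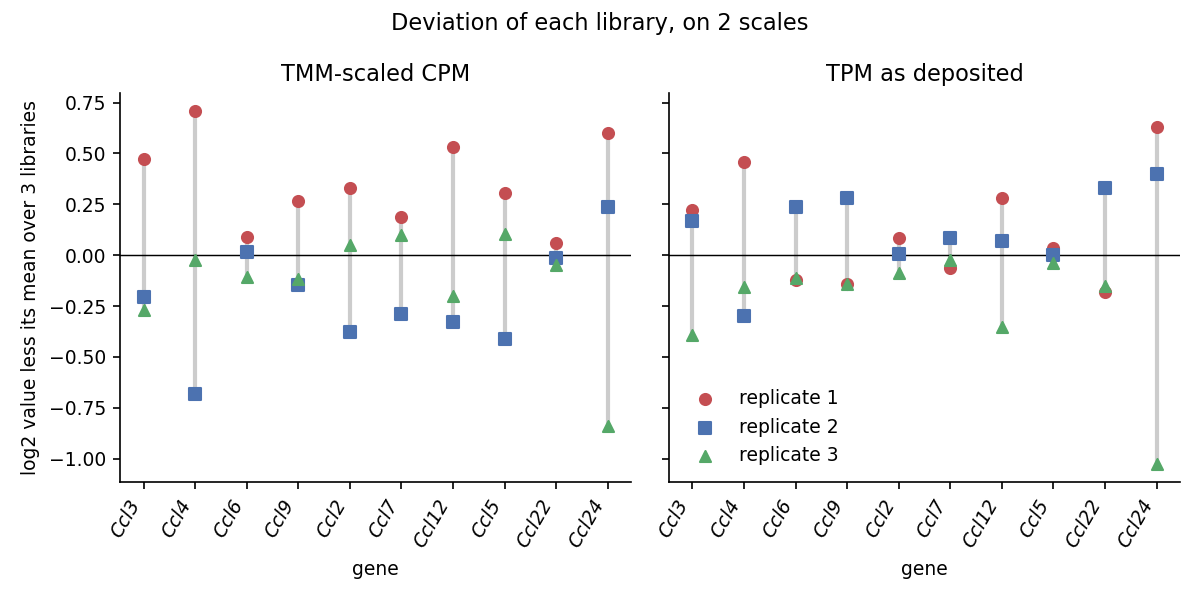
Log2 value of each library less the mean over 3 libraries for each gene, in TMM-scaled CPM (left) and in TPM as deposited (right), with grey bars from lowest to highest. Replicate 1 is on top for 10 of 10 genes on the left and for 6 on the right, and Ccl4 and Ccl24 have the widest bars on the left.

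Stromal cell markers set replicate 1 apart. Of the 10 stromal cell markers, 9 entered the count test and 9 of these were highest in replicate 1, beside 29.8% of tested genes. The summed level of the 10 was 27.1, 0.120 and 0.190 TPM, or 263, 0.478 and 1.19 in TMM-scaled CPM. The leading markers were the collagen genes Col1a1, with 2375, 1 and 14 counts, and Col1a2, with 1565, 5 and 16, while Col3a1, Pdgfra and Lum had 0 counts in replicates 2 and 3. The 10 neutrophil markers summed to 92.0, 83.5 and 104 TMM-scaled CPM, most of it Csf3r at 81.7, 61.5 and 78.0. In TPM they summed to 28.2, 64.8 and 48.7. Replicate 1 was thus lowest in the summed TPM and not in the summed CPM, which mostly follows Csf3r. Of the 6 that entered the count test, Csf3r alone was highest in replicate 1. The other tested markers, S100a8, S100a9, Ngp, Ltf and Mpo, were lowest in replicate 1 in CPM. S100a9 was at 4.08, 10.015 and 10.4 CPM, and Ly6g had 0 counts in replicates 1 and 2. T and NK cell markers summed to at most 0.340 TPM in any library. The part of these cells in the chemokine differences was not tested.

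The genes whose deviations lay nearest to those of Ccl3 over the 3 libraries, among 10064 that averaged at least 100 counts, were Dusp4, Mxd1 and Fahd1, at Euclidean distances of 0.0021, 0.025 and 0.030 in log2 CPM. The nearest CC chemokine gene was Ccl12 at 0.15, followed by Ccl9 at 0.26. A search over 10064 genes tends to find nearer ones than a search over the other members. These distances thus do not show which of them Ccl3 follows more closely. For Ccl24 the nearest were Ptger3, Gm15655 and Slfn1, at 0.096, 0.17 and 0.18. Each distance rests on 3 libraries.

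**Figure D4:**
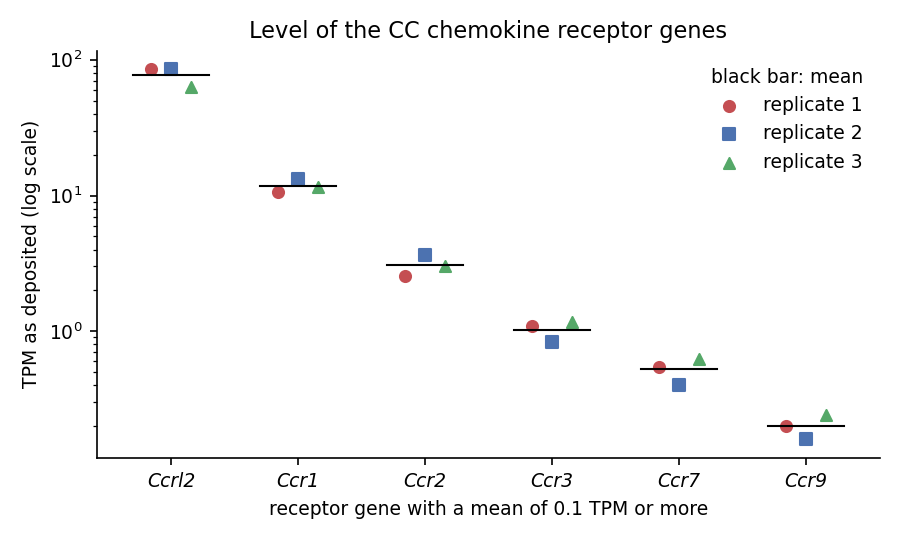
TPM as deposited on a log axis for the 6 reported CC and atypical chemokine receptor genes with a mean of 0.1 TPM or more, with 1 point per library and a black bar at the mean. Ccrl2 lies near 78 TPM, Ccr1 near 12 TPM, and the others at 3.62 TPM or less in each library.

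Few receptor genes reached 1 TPM. Of 14 CC and atypical receptor genes reported, 4 averaged at least 1 TPM and 5 had 0 counts in each library. Ccrl2, a receptor that binds chemerin without signalling like a classical chemokine receptor, was at 85.1, 85.0 and 63.2 TPM, close to the levels of Ccl2 and Ccl7. Ccr1, the receptor of Ccl3, Ccl5, Ccl6 and Ccl9, was at 10.6, 13.3 and 11.6 TPM.

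Ccr2, the receptor of Ccl2, Ccl7 and Ccl12, was at 2.56, 3.62 and 3.03 TPM, and Ccr3, the receptor of Ccl24, at 1.09, 0.830 and 1.17 TPM. Ccr4, the receptor of Ccl22, had 0 counts in every library, as did Ccr6, Ccr8, Ackr1 and Ackr2. The ratio of Ccl2 to Ccr2 in TPM was 31.7, 21.2 and 23.8, and that of Ccl3 to Ccr1 was 27.9, 21.4 and 16.6. The ratio of Ccl5 to Ccr1 was nearer to 1, at 1.52, 1.18 and 1.32, and that of Ccl24 to Ccr3 was 0.550, 0.614 and 0.162, so Ccl24 lay below its receptor in 3 of 3 libraries. Of the 6 receptor genes that entered the count test 6 passed, beside 66.8% of tested genes. Of these 6, 3 were highest in replicate 1, beside 29.8% of tested genes.

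The signalling genes below the receptors were broadly present, with 20 of 21 averaging at least 1 TPM. Rgs1, a regulator that shortens G protein signals, was at 177, 280 and 149 TPM. Gnai2, an inhibitory G protein subunit, was at 131, 213 and 156 TPM, and the small GTPase Rac1 at 109, 145 and 105 TPM. Of the 20 that entered the count test 17 passed, beside 66.8% of tested genes. Among the 20, 1 (Rgs2) spread 1.5-fold or more between libraries, beside 26.8% of tested genes. In replicate 1, 8 of the 20 were highest, beside 29.8% of tested genes.

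Transcripts of Ccl3, Ccl4 and Ccl7 are annotated in 1 form each. For Ccl2, Ccl12 and Ccl5 the protein-coding form held 95.6% ± 1.86, 96.5% ± 1.24 and 98.1% ± 2.00 of the gene's TPM (SD, n = 3). The shares of Ccl6-201 were 78.8%, 98.5% and 71.0% in replicates 1, 2 and 3, and nearly all of the rest was Ccl6-202, a transcript annotated as retaining an intron. Ccl9-201 held 76.6%, 63.5% and 63.9%, the rest being Ccl9-202, a form without an annotated coding sequence. In counts Ccl9-202 held just 1.89%, 3.25% and 3.65%, since it is short and TPM divides by length. The second transcript table put Ccl9-202 at 55.4%, 52.5% and 56.6% of the TPM of its gene, above the protein-coding form, so its share is uncertain. Ccl24 divided its few counts between a pair of protein-coding forms, with Ccl24-201 at 32.2%, 62.7% and 55.6% of TPM.

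The retained-intron forms differed between libraries in the same order for Ccl6 and Ccl2. Ccl6-202 held 10.6% of the gene's counts in replicate 1 (95% Wilson interval 9.88 to 11.3), 0.601% in replicate 2 (0.495 to 0.724) and 15.6% in replicate 3 (14.9 to 16.3). Ccl2-202 held 6.11% (5.21 to 7.19), 3.84% (3.25 to 4.56) and 9.01% (8.02 to 10.1). In both, the 3 intervals did not overlap and replicate 2 was lowest. The intervals leave out the uncertainty of assigning reads to a transcript, which the deposited posterior SD of its count measures. For Ccl6-202 that SD was 93.1, 44.5 and 101 on 806, 105 and 1587 counts. For Ccl2-202 it was 9.22, 7.41 and 11.6 on 139, 129 and 257 counts. The Ccl6-202 shares, that of replicate 2 above all, are thus less certain than their intervals.

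Ccl5-202 held 5.93% (3.58 to 9.75), 0.931% (0.295 to 2.52) and 1.11% (0.326 to 2.78), with replicates 2 and 3 not separated. Replicate 2 was thus lowest in 3 of 3 genes with such a form, beside 55.8% of 6233 tested genes that have one. The second transcript table gave the same lowest library in 3 of 3, beside 62.8% of its genes, but larger shares for Ccl6-202 of 25.0%, 13.0% and 31.2%.

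**Figure D5:**
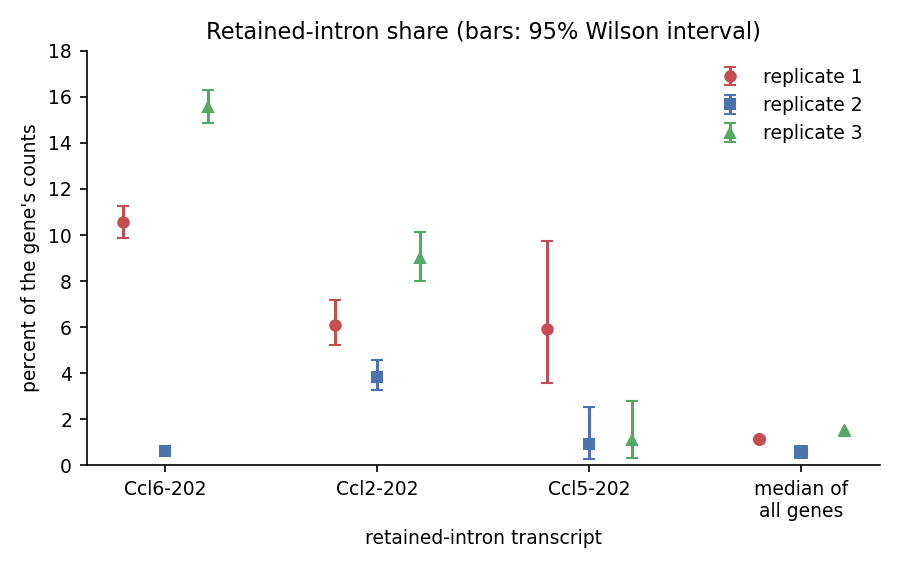
Share of the gene's counts held by the retained-intron transcripts Ccl6-202, Ccl2-202 and Ccl5-202 in each library, in percent, with 95% Wilson intervals as bars, and the median over all tested genes with such a transcript. Replicate 2 is lowest for each, and Ccl6-202 runs from 0.601% to 15.6%.

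The same order was present over all genes with such transcripts. Their median retained-intron share was 1.17%, 0.569% and 1.52% of counts, and the nuclear RNA Malat1 stood at 3877, 1259 and 6509 TMM-scaled CPM. Replicate 2 was lowest and replicate 3 highest in both, as for Ccl6 and Ccl2. How far carry-over of nuclear RNA bears on the intron shares was not tested.

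The 3′ UTRs were searched for the AU-rich pentamer ATTTA and the heptamer TATTTAT in the most abundant protein-coding transcript of each gene (GENCODE M21). The pentamer was found in 8 of the 10, all but Ccl5 and Ccl24, beside 63.5% of 7046 genes averaging at least 1 TPM with a 3′ UTR of 124 to 2465 nt, the range of the 10. The heptamer was found in 4, Ccl12, Ccl3, Ccl4 and Ccl22, beside 22.0% of those genes. The choice of transcript was nearly a tie for Ccl24, where Ccl24-202, used here with a 3′ UTR of 124 nt, averaged 0.223 TPM and Ccl24-201, with 858 nt, 0.203 TPM. Neither form held the pentamer. These 4 sites are shown with 30 bases each, the pentamer and heptamer letters in capitals, since they are the sites that hold the heptamer.
Ccl12, chr11:82103276-82103305, plus strand: cgggcagtgtgaTATTTATtatgatatcta
Ccl3, chr11:83648003-83648032, minus strand: tgtatttgtgacTATTTATtctgaaagact
Ccl4, chr11:83664541-83664570, plus strand: tattatttctatTATTTATgttttagttat
Ccl22, chr8:94750818-94750847, plus strand: aagctatagttaTATTTATataggaaagag
Ccl12 and Ccl3 had 5 pentamers each in 3′ UTRs of 167 and 409 nt, and Ccl9 had 5 in 2465 nt. Genes with the heptamer thus included Ccl3 and Ccl4, the pair with the highest mean TPM, and Ccl22, which was under 1 TPM. The site was present at both ends of the range of TPM levels. The site names a run of letters, and decay was not measured.

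Reads shared with other genes would widen the deposited posterior SD of the count, which was 0 for each of the 10 genes in each library, as for 65.2% of tested genes. On the opposite strand Ccl2 lies within Gm17268, which had 0 counts, and Ccl6 within E230016K23Rik, which had 2, 10 and 5 counts. Whether counting used the strand is not given in the sources used here, so reads of such partners cannot be told apart with certainty.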

How the data were processed

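Cytosolic RNA of 3 libraries of 1 group was analysed. The deposited expected counts are unnormalized reads per gene or transcript, with ambiguous reads shared out by the authors' estimator, on mm10 with GENCODE M21 per the deposited readme files. The deposited TPM are counts per effective length, set to a total of 1000000 per library. A second transcript table, with the column layout of kallisto, holds separate estimates, which were summed per gene. The percent column that the authors deposited states isoform shares, which were recomputed here from TPM. The names and versions of the authors' software were not given in the sources used here. Rows naming no annotated gene (26345 of 81881) were left out and held 0.462%, 0.109% and 0.0969% of counts in replicates 1, 2 and 3.

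Counts were rounded, scaled with TMM factors (edgeR 4.0.16) and tested by chi-square index of dispersion at a mean count of 10 or more and an adjusted p of 0.05. Deviations used a prior count of 0.5. DESeq2 1.42.0 gave alternative size factors. With 1 group, no contrast between conditions was fitted. Alternatives were other size factors, count filters, prior counts, pseudocounts, TPM scales, the second transcript table and leaving out each replicate. Code was tested on simulated data.

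The genes, lists and motifs, and replicate 1 as the library to count, were chosen with earlier results of these data known. Besides the 10 members, genes were named as the 3 highest by mean TPM of each list, other ligands at 0.1 TPM or more, the 2 highest markers of a cell type, and the 3 genes nearest to Ccl3 and Ccl24. An item of the receptor list is not reported here. Others were named after their values were seen. B cell, endothelial, and mast cell, basophil and eosinophil markers were also read and summed to at most 8.74, 17.3 and 1.58 TPM. Intervals and limits hold for counting error alone, because PCR copies cannot be recognised without molecular identifiers.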

Additional observations from a re-analysis of the deposited data

How the results depend on the processing

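Of 179 recomputed values, 146 were rated the same as the main value. For counts of genes or pairs this meant within 1.5-fold of it, and for differences the same sign. Levels and shares had to stay within 1 SD, and deviations had to keep their sign as well. Leaving out 1 of 3 libraries cannot move a mean by 1 SD. The ratings of levels and shares with a replicate left out were thus fixed in advance and say nothing about stability. The number of the 10 genes highest in replicate 1 was 10, but 6 in the TPM as deposited and 1 in the TPM of the second transcript table. The number past a 1.5-fold range was 6, and 2, 4 and 5 without replicates 1, 2 and 3, beside 17.7%, 12% and 17.8% of all tested genes. In the TPM as deposited it was 4 beside 68.5%. The genes passing the count test, 8842 in all, ran from 4334 to 7376 in the same way, with the lowest value without replicate 2. The summed TPM of 950 became 3643 when protein-coding genes were scaled to 1000000 and 435 in the second transcript table. The share of the main transcript of Ccl6 was 60.7% in that table in place of 82.7%, and that of Ccl9 45.2% in place of 68.0%. Without division by length, Ccl4 less Ccl6 was -0.83 and Ccl6 less Ccl9 -0.063 in log2, both reversed. Ccl22 less Ccl24 was -0.005 in the second table, against 0.16. Ccl3 less Ccl4 ran from -0.137 to 0.21 with each replicate left out. The median deviation of the 10 genes in replicate 2 was 0.086 on the log2(TPM + 1) scale, against -0.25 in CPM. Of the TPM levels of single genes, 19 moved by more than 1 SD, all with rescaled TPM or the second table, as did the share of Ccl12-201 (95.1% in that table). The cause of these changes was not tested. Depth limits Ccl22 and Ccl24, read on 9 to 110 counts. Chosen after seeing the data were rescaled TPM for the 1.5-fold and highest-library counts, second-table TPM and leaving out replicates for the latter, the second table for intron shares, and the other form of Ccl24. No paired comparison between groups was possible because the series has 1 group, and the permutation test paired genes within a library.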
